A study of Homo sapiens with 9 samples.

Results

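The genes of cholesterol synthesis, uptake, efflux and SREBP control were examined in MDA-MB-231, a cultured line of triple-negative breast cancer, given vehicle (DMSO), rimonabant or TXX-1-10. Rimonabant blocks the cannabinoid receptor CB1, and the study developed TXX-1-10 from it. Each treatment had 3 RNA-seq libraries, 9 in all, and no genotype or other agent distinguished them. How much of each compound the sequenced cells received, and for how long, is not given in the sources used here, so whether the compounds were matched in dose or time is unknown. The 28 genes were chosen by symbol from the roles of their proteins, as 8 genes of the mevalonate steps, 11 of the sterol steps and 9 of uptake, efflux and SREBP control. This list and a further list below were chosen with earlier results of these data known. Counts of changed genes set beside all genes are therefore descriptions and test nothing about the lists. All 28 were found among the 27615 genes of the longest list, each symbol with 1 Ensembl identifier, and all are annotated as protein-coding.

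Cholesterol is built from acetyl-CoA. The mevalonate steps make the isoprenoid diphosphates, from which cells also make farnesyl and geranylgeranyl groups for proteins, ubiquinone and dolichol, and the sterol steps join farnesyl diphosphate into squalene, close the rings and trim lanosterol to cholesterol. SREBP transcription factors, made by SREBF1 and SREBF2, raise most of these genes when sterols in the endoplasmic reticulum fall. SCAP escorts the SREBP precursor to the Golgi for cleavage, INSIG proteins hold it back when sterols are plentiful, and INSIG1 is itself an SREBP target. When oxysterols accumulate, liver X receptors act the other way and raise ABCA1, which exports cholesterol, and MYLIP, which marks lipoprotein receptors for degradation. SREBF1 is also a known target of liver X receptors.

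For each gene the authors deposited a read count and an FPKM value, the count scaled to gene length and to the reads of the library. The totals behind the FPKM values were 17078370 to 19277808 reads. The 9 deposited lists share 1 gene order, broadly from high to low counts, and all end in an incomplete line at different points, from 4237 to 27615 genes, so a gene past the end of a list has no value there, which is not a value of 0. Of the 28 genes, 14 were listed for all 9 libraries, 11 for all but rimonabant replicate 1, 2 (GGPS1 and MYLIP) for 7 libraries and 1 (ABCA1) for 6. Counts therefore went into edgeR's quasi-likelihood fit of the 8 libraries other than rimonabant replicate 1, with GGPS1 and MYLIP in a fit that also left out vehicle replicate 2, and ABCA1 in one that further left out TXX-1-10 replicate 1. Vehicle was compared with rimonabant over 2 rimonabant libraries in all 3 fits. A gene was said to rise or fall where its Benjamini-Hochberg adjusted p over all genes of the fit was under 0.05, and to pass the 2-fold threshold where its absolute log2 fold change was also at least 1. The labels number the replicates but do not say that they came from separate cultures, so the p-values measure only the spread between these libraries, which may be technical. Rimonabant replicate 1 and TXX-1-10 replicate 3 stood apart from their own replicates. Their log2 ratio to the other replicates of their group fell with gene length (Spearman rho -0.70 for both over genes, against -0.02 to 0.67 for the other 7 libraries). The results below are therefore set against fits with all 9 libraries or without TXX-1-10 replicate 3 wherever that moved a call. The cells carried the RNA of a mesenchymal-type line in all 9 libraries, with mean FPKM in vehicle of 280 for VIM, 241 for MSN, 217 for AXL and 39.7 for CD44. In the 4 libraries whose lists reach them, CDH1 had 0 reads, and the hormone receptor genes ESR1 and PGR had 3 to 8 and 9 to 13 reads. PTPRC, a leukocyte marker, had 1 to 10 reads in the same libraries, EPCAM had 208 to 246 in 7 libraries and GATA3 25 to 86 in 6.

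RefSeq promoter windows on GRCh38.p14, from 250 bases before to 50 bases after a start site, matched 25 of the 28 genes. ACAT2, FDFT1 and SQLE had no entry. Both strands were searched for the sterol regulatory element TCACNCCAC, the CCAAT box bound by NF-Y and the GGGCGG box bound by Sp1, the last pair being boxes beside which SREBP is known to act. CCAAT was present for 19 of the 25 genes (76.0%), beside 43.9% of the 7529 tested genes with a window and 34.6% of all 35116 windows. GGGCGG was present for 24 (96.0%), beside 80.0% of the tested genes and 45.0% of all windows. TCACNCCAC matched only SREBF2 (4.0%), beside 1.45% of the tested genes and 1.13% of all windows. A gene was counted if any of its windows held the motif, whereas the share of all windows counts each window alone. By single window, CCAAT was in 63.6% of the 33 windows of these genes, GGGCGG in 90.9% and TCACNCCAC in 3.03%. Over the 11108 windows of the tested genes these shares were 34.8%, 68.3% and 1.04%. The 6 genes without CCAAT in these windows were PMVK, CYP51A1, INSIG2, SREBF1, SCAP and ABCA1. These are descriptions of letters in a short window. A match does not show binding, and the lack of a match to a fixed pattern does not show that an element is absent. The 200 bases before a start site are printed for 4 genes with large rises under both compounds (MSMO1, INSIG1, STARD4 and SC5D), for EBP, which fell under TXX-1-10, and for SREBF2, whose own RNA passed no test under either compound. Each is written 5′ to 3′ on the strand of the gene, and capitals mark the 3 motifs on either strand.
MSMO1, chr4:165327469-165327668, plus strand: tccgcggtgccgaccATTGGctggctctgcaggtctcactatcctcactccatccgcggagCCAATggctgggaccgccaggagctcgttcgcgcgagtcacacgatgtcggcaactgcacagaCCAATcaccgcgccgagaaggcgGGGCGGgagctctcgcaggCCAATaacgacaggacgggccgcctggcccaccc
INSIG1, chr7:155297678-155297877, plus strand: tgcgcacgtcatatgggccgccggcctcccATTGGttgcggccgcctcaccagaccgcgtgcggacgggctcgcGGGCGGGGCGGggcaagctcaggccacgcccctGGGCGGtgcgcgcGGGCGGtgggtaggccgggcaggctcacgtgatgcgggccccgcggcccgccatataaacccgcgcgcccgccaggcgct
STARD4, chr5:111512536-111512735, minus strand: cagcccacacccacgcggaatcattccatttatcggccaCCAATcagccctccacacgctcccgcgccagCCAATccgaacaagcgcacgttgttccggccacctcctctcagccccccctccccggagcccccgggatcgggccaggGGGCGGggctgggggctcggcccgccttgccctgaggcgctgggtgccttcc
SC5D, chr11:121292571-121292770, plus strand: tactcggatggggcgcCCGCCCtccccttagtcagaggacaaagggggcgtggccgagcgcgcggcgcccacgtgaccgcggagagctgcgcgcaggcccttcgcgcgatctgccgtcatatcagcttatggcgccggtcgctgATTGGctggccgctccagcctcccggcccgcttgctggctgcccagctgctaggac
EBP, chrX:48521608-48521807, plus strand: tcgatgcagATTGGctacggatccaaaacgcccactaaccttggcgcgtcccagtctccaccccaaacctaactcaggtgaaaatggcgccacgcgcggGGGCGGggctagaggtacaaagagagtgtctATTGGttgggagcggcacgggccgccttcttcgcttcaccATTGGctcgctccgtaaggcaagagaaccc
SREBF2, chr22:41832905-41833104, plus strand: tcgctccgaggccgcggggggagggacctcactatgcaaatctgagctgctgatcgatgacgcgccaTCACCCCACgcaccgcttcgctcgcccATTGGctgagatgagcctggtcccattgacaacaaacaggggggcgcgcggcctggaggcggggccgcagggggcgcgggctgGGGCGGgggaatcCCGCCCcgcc
MSMO1 held 4 CCAAT boxes in these 200 bases, more than the other 5 windows shown, and EBP held 3. INSIG1 held 1 CCAAT box and 4 GGGCGG boxes, a pair of which overlap. The sterol regulatory element of SREBF2 lay from -133 to -125, counted from its start site. In the windows printed, EBP, which fell under TXX-1-10, had more CCAAT boxes than STARD4 or SC5D, which rose. Whether the number of boxes bears on the direction of change was not tested.

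In vehicle-treated cells the levels of the 28 genes, in FPKM and so per length, ranged from 34.3 ± 1.10 (SD, n = 3) for FDFT1, the squalene synthase, to 0.272 ± 0.00161 (SD, n = 2) for ABCA1. Next after FDFT1 came DHCR7 (29.0 ± 2.35 FPKM, n = 3) and FDPS, the farnesyl diphosphate synthase (28.5 ± 0.140 FPKM, n = 3). DHCR7 reduces a ring double bond in the last step of a route to cholesterol. DHCR7 and FDPS overlapped, so their order was not resolved. SOAT1, which esterifies cholesterol, and SREBF2 followed at 23.8 ± 0.925 and 22.6 ± 0.544 FPKM and also overlapped. Below the middle of the order, SREBF1 at 9.19 ± 0.748 FPKM stood well under SREBF2, with no overlap between their libraries. The lowest 4 were MYLIP at 3.64 ± 0.210 (n = 2), HSD17B7 at 2.85 ± 0.213 (n = 3), GGPS1 at 2.5 ± 0.242 (n = 2) and ABCA1, and no neighbours among these 4 overlapped.

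**Figure D1:**
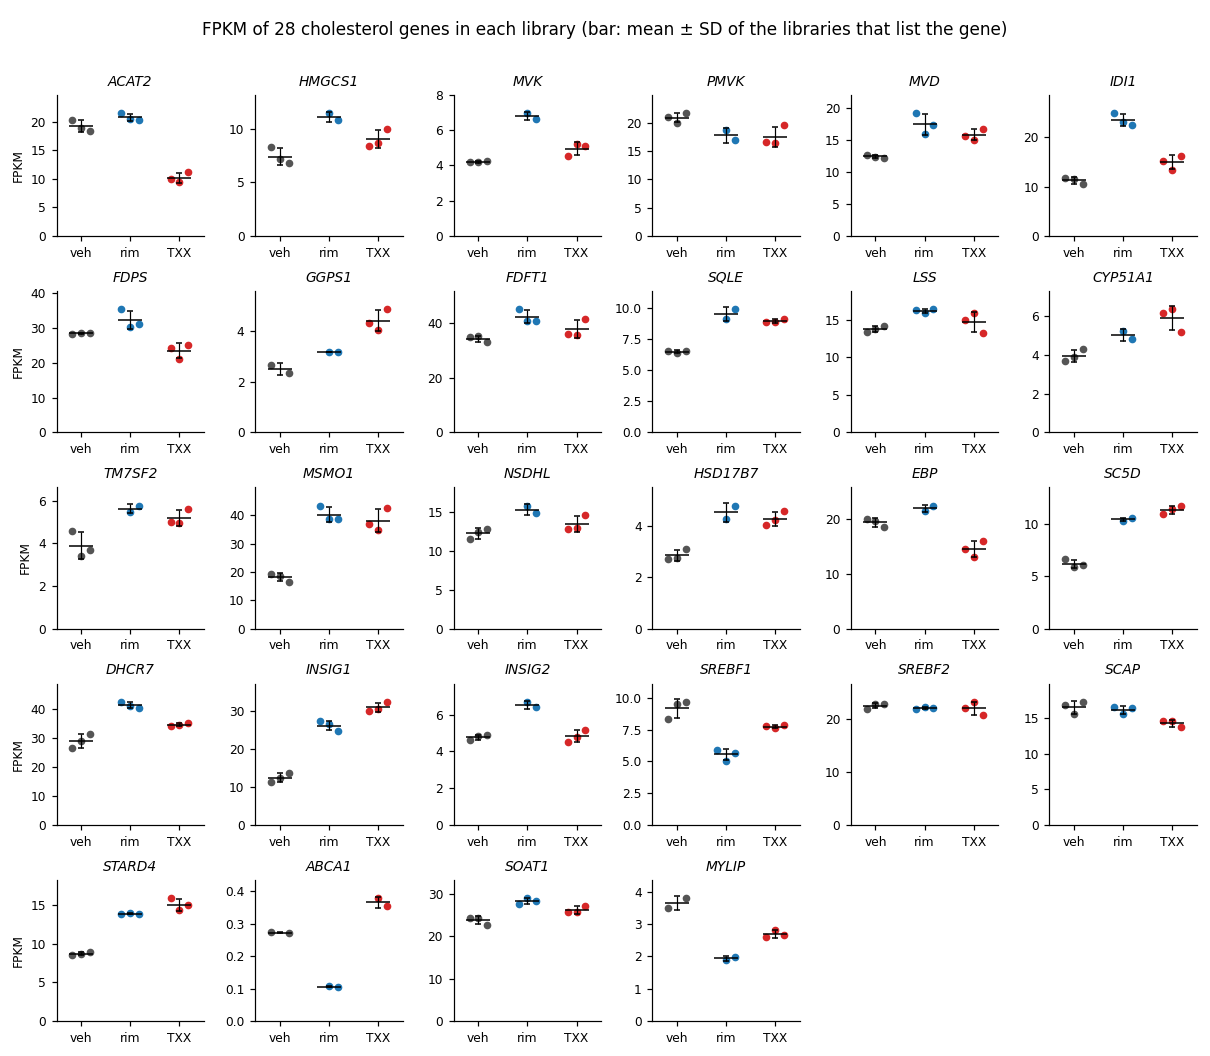
FPKM (y axis, from 0) of each of the 28 genes in each library of vehicle (veh), rimonabant (rim) and TXX-1-10 (TXX), where points are libraries in replicate order and bars are the mean ± SD of the libraries that list the gene. ACAT2 and EBP are low in all 3 TXX-1-10 libraries, INSIG1 and MSMO1 are high under both compounds, and SREBF2 is level.

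Most of the genes were higher under rimonabant than under vehicle. Of the 25 genes in the fit of 8 libraries, 18 rose (72.0% when set beside the 23.7% of all 9395 genes that rose), 1 fell (SREBF1, where 22.8% of all genes fell) and 6 did not pass. The median log2 fold change was 0.42 over the 25 genes and 0.00 over all genes. IDI1, MSMO1 and INSIG1 passed the 2-fold threshold upward, as did 0.734% of all genes, and none of the 25 passed it downward, as did 0.777%. All 3 lay close to the threshold.

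Under TXX-1-10 the genes moved in both directions. Of the same 25, 14 rose (56.0%, beside 34.6% of all genes), 6 fell (24.0%, beside 40.6%) and 5 did not pass. The median log2 fold change was 0.24, beside -0.04 over all genes. INSIG1 and MSMO1 passed the 2-fold threshold upward, as did 5.27% of all genes, and none passed it downward, as did 7.42%. TXX-1-10 changed more genes of the whole fit than rimonabant did (75.2% against 46.5% at any size), so a gene passing under TXX-1-10 had a larger background. The rimonabant share rested on fewer libraries and on a spread shared by all groups. Without TXX-1-10 replicate 3, 2902 of the 9395 genes rose and 2913 fell under rimonabant, in place of 2228 and 2144. Under TXX-1-10 these counts were then 3405 and 4146, in place of 3252 and 3816. Both comparisons use the same vehicle libraries, and their values are given side by side below. As these are bulk libraries scaled to their totals, less RNA of a gene per cell and fewer cells that express it cannot be told apart.

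**Figure D2:**
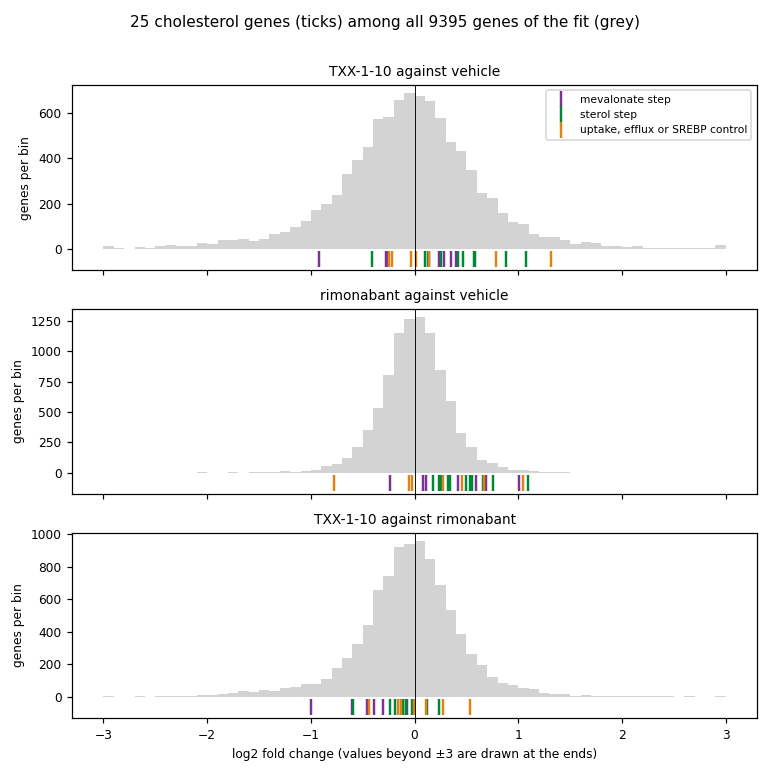
Histograms of the log2 fold change of all 9395 genes of the fit of 8 libraries (grey, bins of 0.1, y axis: genes per bin) for each comparison, with the 25 cholesterol genes as ticks below, coloured by role. Under rimonabant the ticks lie mostly right of 0 (median 0.42), under TXX-1-10 they spread from -0.92 to 1.32.

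The pathway opens with ACAT2, the cytosolic thiolase that makes acetoacetyl-CoA (chr6:159760328-159779055, plus strand). Its FPKM was 20.4, 19.0 and 18.5 in the vehicle libraries, 21.5, 20.5 and 20.3 in the rimonabant libraries and 9.95, 9.42 and 11.2 in the TXX-1-10 libraries. All 3 TXX-1-10 values lay below all 6 others, while vehicle and rimonabant overlapped. ACAT2 fell by 47.1% under TXX-1-10, at a log2 fold change of -0.92 ± 0.07 (SE, adjusted p = 1.24e-07), and its value under rimonabant was 0.08 (adjusted p = 0.372). It was the lowest of the 25 genes under TXX-1-10. The next enzyme, HMGCS1, which condenses acetoacetyl-CoA into HMG-CoA, moved the other way. Its FPKM was 8.29, 7.14 and 6.79 with vehicle, 11.5 and 10.8 in the 2 rimonabant libraries that list it and 8.36, 8.72 and 9.98 with TXX-1-10. HMGCS1 rose under rimonabant by 0.59 ± 0.10 (SE, adjusted p = 0.000436) and under TXX-1-10 by 0.28 ± 0.09 (SE, adjusted p = 0.011) on the log2 scale. The rise under TXX-1-10 was lost without vehicle replicate 3, at 0.22 (adjusted p = 0.0582).

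The kinases and the decarboxylase that turn mevalonate into isopentenyl diphosphate did not move together. MVK, the mevalonate kinase, read 4.18, 4.18 and 4.25 FPKM with vehicle, 6.96 and 6.63 with rimonabant and 4.56, 5.20 and 5.11 with TXX-1-10. The 3 groups did not overlap, with rimonabant highest, and the log2 fold changes were 0.69 ± 0.08 (SE, adjusted p = 2.39e-05) under rimonabant and 0.24 ± 0.07 (SE, adjusted p = 0.00816) under TXX-1-10. PMVK, the phosphomevalonate kinase, was lower in every treated library that lists it, at 21.0, 20.0 and 21.7 FPKM with vehicle, 18.6 and 16.9 with rimonabant and 16.6, 16.4 and 19.6 with TXX-1-10. It fell under TXX-1-10 by a log2 fold change of -0.25 (adjusted p = 0.0175), and its rimonabant value of -0.24 (adjusted p = 0.0629) did not pass, though without TXX-1-10 replicate 3 it did (-0.24, adjusted p = 0.0119). The TXX-1-10 call on PMVK was weak. It was lost once the trend with gene length was removed from each library, at -0.11 (adjusted p = 0.183), with DESeq2, at -0.21 (adjusted p = 0.0518), and without TXX-1-10 replicate 1, TXX-1-10 replicate 2 or vehicle replicate 3, at -0.22, -0.21 and -0.23. MVD, the decarboxylase, rose under both compounds, by 0.42 (adjusted p = 0.000353) under rimonabant and 0.35 (adjusted p = 0.000189) under TXX-1-10 on the log2 scale.

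IDI1, the isomerase that balances isopentenyl and dimethylallyl diphosphate, showed the largest rise of the mevalonate steps under rimonabant (chr10:1039152-1049170, minus strand). Its FPKM was 11.8, 11.7 and 10.5 with vehicle, 24.9, 23.1 and 22.5 with rimonabant and 15.2, 13.5 and 16.2 with TXX-1-10. The groups did not overlap, and the lowest rimonabant library stood above the highest TXX-1-10 library. The rise was 101% under rimonabant, a log2 fold change of 1.01 ± 0.08 (SE, adjusted p = 2.69e-06), and 32.0% under TXX-1-10, at a log2 fold change of 0.40 ± 0.07 (SE, adjusted p = 0.000348). The rimonabant value of IDI1 was under the 2-fold threshold without vehicle replicate 3 (0.96), without rimonabant replicate 2 (0.99) and with limma on log2(FPKM + 1) (0.95). FDPS, which makes farnesyl diphosphate, read 28.4, 28.4 and 28.7 FPKM with vehicle, 35.4, 30.4 and 31.2 with rimonabant and 24.4, 21.0 and 25.2 with TXX-1-10. It fell by 17.5% under TXX-1-10, at a log2 fold change of -0.28 ± 0.06 (SE, adjusted p = 0.00187), and its rimonabant value was 0.11 (adjusted p = 0.223). Its rimonabant libraries all lay above those of vehicle, and the value passed narrowly in a fit of those 2 groups only (0.11, adjusted p = 0.0491). GGPS1, which adds a further isoprene unit to make the geranylgeranyl donor, went against FDPS. In the fit of 7 libraries it rose under TXX-1-10 by 0.82 ± 0.12 (SE, adjusted p = 0.000104), from 2.67 and 2.33 FPKM in 2 vehicle libraries to 4.32, 4.05 and 4.85 in 3 TXX-1-10 libraries, where 31.9% of 11733 genes rose. Under rimonabant its value was 0.33 (adjusted p = 0.0776), which passed without TXX-1-10 replicate 3 (0.33, adjusted p = 0.0313), with the length trend removed (adjusted p = 0.045) and in a fit of those 2 groups only (adjusted p = 0.0454). Of the 7 mevalonate genes in the fit of 8 libraries, 4 rose (57.1%, beside 34.6% of all genes) and 3 fell (42.9%, beside 40.6%) under TXX-1-10. Their median log2 fold change was 0.24. Under rimonabant 4 rose (57.1%, beside 23.7%), 0 fell (beside 22.8%) and 3 did not pass (median 0.42).

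The sterol steps moved mostly upward. Of 11 genes, 10 rose (90.9%, beside 23.7% of all genes) and 0 fell (beside 22.8%) under rimonabant, with a median log2 fold change of 0.49. Under TXX-1-10 7 rose (63.6%, beside 34.6%) and 1 fell (9.1%, beside 40.6%), with a median of 0.42. FDFT1, which joins a pair of farnesyl groups into squalene, rose under rimonabant by 0.25 (adjusted p = 0.0103) and had a value of 0.14 (adjusted p = 0.0632) under TXX-1-10. The TXX-1-10 value passed with TMM (0.19, adjusted p = 0.00805), DESeq2 (0.18, adjusted p = 0.00848), the length trend removed (0.16, adjusted p = 0.00997), and without TXX-1-10 replicate 1 (0.17, adjusted p = 0.0486) or 2 (0.18, adjusted p = 0.0282). Its rise under rimonabant was lost without rimonabant replicate 2 or 3, which leaves 1 library of that group, at 0.25 (adjusted p = 0.0633) and 0.25 (adjusted p = 0.0619). SQLE, the squalene epoxidase and a rate-limiting step, read 6.52, 6.37 and 6.56 FPKM with vehicle, 9.10 and 9.87 with rimonabant and 8.82, 8.83 and 9.14 with TXX-1-10. Every treated library that lists SQLE stood above every vehicle library, with log2 fold changes of 0.55 ± 0.07 (SE, adjusted p = 6.28e-05) and 0.46 ± 0.06 (SE, adjusted p = 2.38e-05). LSS, which closes the rings to lanosterol, rose under rimonabant only weakly, by 0.23 (adjusted p = 0.0213), and the call was lost without either rimonabant library, vehicle replicate 1 or vehicle replicate 2 (0.21 to 0.25). Under TXX-1-10 LSS overlapped vehicle (14.9, 16 and 13.3 against 13.4, 13.8 and 14.3 FPKM) at 0.10 (adjusted p = 0.199), and without TXX-1-10 replicate 3 it rose, by 0.16 (adjusted p = 0.00243).

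Lanosterol is next stripped of its methyl groups. MSMO1, the methyl sterol oxidase (chr4:165327623-165343160, plus strand), had the largest rise of any sterol step under both compounds. Its FPKM was 19.3, 18.7 and 16.4 with vehicle, 43.3, 38.7 and 38.6 with rimonabant and 36.9, 34.8 and 42.5 with TXX-1-10. The lowest treated library was well above the highest vehicle library, and the treated groups overlapped each other. MSMO1 rose by 113% under rimonabant (log2 fold change 1.09 ± 0.09 SE, adjusted p = 2.83e-06) and by 110% under TXX-1-10 (log2 fold change 1.07 ± 0.08 SE, adjusted p = 1.19e-07). Without TXX-1-10 replicate 3 its TXX-1-10 value was 0.99, under the 2-fold threshold. The genes that act beside it moved less. CYP51A1, the lanosterol demethylase, rose by 0.58 (adjusted p = 0.000176) under TXX-1-10 and 0.35 (adjusted p = 0.0239) under rimonabant, the latter lost without either rimonabant library, vehicle replicate 1 or vehicle replicate 2 (0.28 to 0.41). TM7SF2, a sterol reductase, rose by 0.53 (adjusted p = 0.00385) under rimonabant and 0.42 (adjusted p = 0.00447) under TXX-1-10. HSD17B7, the keto reductase of the demethylation complex, rose by 0.66 (adjusted p = 0.000272) and 0.58 (adjusted p = 9.82e-05) in the same order. NSDHL, the dehydrogenase of that complex, rose under rimonabant by 0.32 (adjusted p = 0.00986), a call lost without rimonabant replicate 2 (0.28, adjusted p = 0.0926), and had 0.13 (adjusted p = 0.149) under TXX-1-10. With the length trend removed NSDHL rose under TXX-1-10 too, by 0.24 (adjusted p = 0.00876), as it did with TMM, by 0.19 (adjusted p = 0.0426).

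The last sterol steps shift and reduce double bonds. EBP, the isomerase, was the 1 sterol gene that fell. Its FPKM was 20.0, 19.6 and 18.6 with vehicle, 21.5 and 22.5 in 2 rimonabant libraries and 14.6, 13.1 and 16 with TXX-1-10. The TXX-1-10 libraries lay below all others and the rimonabant libraries above all others. The log2 fold change was -0.41 ± 0.07 (SE, adjusted p = 0.000297) under TXX-1-10, a fall by 24.9%, and 0.18 (adjusted p = 0.0903) under rimonabant, which passed with the length trend removed (0.21, adjusted p = 0.00887), without TXX-1-10 replicate 3 (0.18, adjusted p = 0.0139) and in a fit of those 2 groups only (0.18, adjusted p = 0.0142). SC5D, the desaturase that acts on the product of EBP, rose under both compounds. It read 6.63, 5.87 and 6.01 FPKM with vehicle, 10.3 and 10.5 with rimonabant and 10.9, 11.4 and 11.7 with TXX-1-10, with log2 fold changes of 0.75 ± 0.07 (SE, adjusted p = 7.37e-06) and 0.88 ± 0.06 (SE, adjusted p = 7.40e-08). DHCR7, the final reductase of that branch, read 26.7, 28.9 and 31.4 FPKM with vehicle, 42.5, 41.1 and 40.6 with rimonabant and 34.2, 34.7 and 35.3 with TXX-1-10. Its groups were ordered without overlap, rimonabant highest, with log2 fold changes of 0.49 ± 0.06 (SE, adjusted p = 9.61e-05) and 0.26 ± 0.06 (SE, adjusted p = 0.00161).

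**Figure D3:**
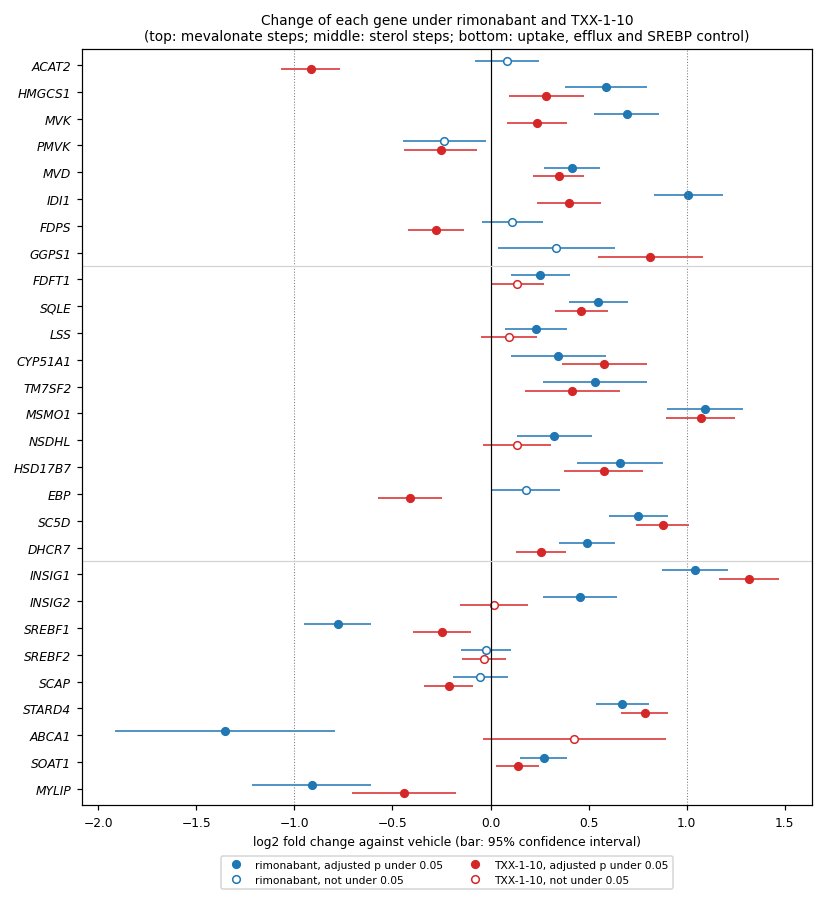
Log2 fold change of each of the 28 genes against vehicle (x axis) under rimonabant (blue) and TXX-1-10 (red), with 95% confidence intervals; filled points have an adjusted p under 0.05 and dotted lines mark a 2-fold change. ACAT2, FDPS and EBP lie left of 0 in red and right of 0 in blue, and ABCA1 lies at -1.35 in blue; GGPS1 and MYLIP come from the fit of 7 libraries and ABCA1 from that of 6.

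Among the control genes, the feedback gene INSIG1 had the largest rise of all 25 genes under TXX-1-10 (chr7:155297776-155310235, plus strand). INSIG1 holds the SREBP escort in the endoplasmic reticulum. Its FPKM was 11.4, 12.3 and 13.7 with vehicle, 27.3, 26.5 and 24.7 with rimonabant and 30.1, 30.5 and 32.4 with TXX-1-10. The 3 groups did not overlap, with TXX-1-10 highest. INSIG1 rose by 149% under TXX-1-10 (log2 fold change 1.32 ± 0.07 SE, adjusted p = 5.52e-09) and by 106% under rimonabant (log2 fold change 1.04 ± 0.08 SE, adjusted p = 1.65e-06). The rimonabant value was under the 2-fold threshold without vehicle replicate 1 (0.98), without rimonabant replicate 2 (0.99) and with limma on log2(FPKM + 1) (0.99), and with all 9 libraries it was 1.07. Its paralog INSIG2 did otherwise, at 4.60, 4.82 and 4.88 FPKM with vehicle, 6.69 and 6.40 with rimonabant and 4.52, 4.76 and 5.19 with TXX-1-10. INSIG2 rose under rimonabant by 0.46 ± 0.09 (SE, adjusted p = 0.00113), and under TXX-1-10 it overlapped vehicle at 0.02 (adjusted p = 0.856).

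None of the genes of the SREBP proteins and of their escort rose in the tests. SREBF2, which encodes the SREBP that chiefly drives cholesterol synthesis, read 22.0, 22.8 and 22.9 FPKM with vehicle, 21.9, 22.3 and 22.1 with rimonabant and 22.1, 23.2 and 20.8 with TXX-1-10. The groups overlapped, and the log2 fold changes were -0.03 under rimonabant (95% interval -0.15 to 0.10) and -0.03 under TXX-1-10 (95% interval -0.15 to 0.08). SREBF1, whose products chiefly drive fatty acid synthesis, read 8.33, 9.55 and 9.68 FPKM with vehicle, 5.94, 5.07 and 5.63 with rimonabant and 7.76, 7.62 and 7.87 with TXX-1-10. Each group was clear of the others, with rimonabant lowest. SREBF1 fell by 41.8% under rimonabant (log2 fold change -0.78 ± 0.08 SE, adjusted p = 1.47e-05) and by 15.7% under TXX-1-10 (log2 fold change -0.25 ± 0.07 SE, adjusted p = 0.00559). SCAP fell under TXX-1-10 by a log2 fold change of -0.21 (adjusted p = 0.00437) and had -0.05 (adjusted p = 0.528) under rimonabant.

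The genes that move, store or export cholesterol differed from each other. STARD4, a sterol carrier of the cytosol, rose under both compounds, from 8.58, 8.64 and 8.92 FPKM with vehicle to 13.8, 13.9 and 13.8 with rimonabant and 15.8, 14.3 and 14.9 with TXX-1-10. The treated libraries stood well above vehicle, with log2 fold changes of 0.67 ± 0.06 (SE, adjusted p = 7.00e-06) and 0.79 ± 0.06 (SE, adjusted p = 6.65e-08). SOAT1 rose a little under rimonabant, by 0.27 (adjusted p = 0.00191), and under TXX-1-10, by 0.14 (adjusted p = 0.024), the second lost without vehicle replicate 3 (0.11, adjusted p = 0.0997). MYLIP and ABCA1, both targets of liver X receptors, were lowest under rimonabant. MYLIP read 3.49 and 3.79 FPKM in 2 vehicle libraries, 1.88 and 1.99 in 2 rimonabant libraries and 2.58, 2.81 and 2.65 in 3 TXX-1-10 libraries. It fell under rimonabant by a log2 fold change of -0.91 ± 0.14 (SE, adjusted p = 0.000575), where 17.1% of 11733 genes fell, and under TXX-1-10 with -0.44 ± 0.12 (SE, adjusted p = 0.00683), where 36.2% fell. The fall under TXX-1-10 was lost without vehicle replicate 3 (-0.38, adjusted p = 0.0599). ABCA1 (chr9:104781002-104928237, minus strand) had the fewest reads of the 28 genes, with 53 and 53 in 2 vehicle libraries, 23 and 22 in 2 rimonabant libraries and 79 and 74 in 2 TXX-1-10 libraries. In FPKM these were 0.273 and 0.271, 0.108 and 0.105 and 0.378 and 0.354, and the 3 pairs did not overlap. ABCA1 fell by 60.9% under rimonabant, a log2 fold change of -1.35 ± 0.26 (SE, adjusted p = 0.00215) in the fit of 6 libraries, and passed the 2-fold threshold downward as did 1.56% of 12893 genes. With limma its value was -0.85 (adjusted p = 0.0106) on log2(FPKM + 0.1) and -0.20 (adjusted p = 0.0398) on log2(FPKM + 1), scales that understate the change of so low a gene, and it was then under the 2-fold threshold. Under TXX-1-10 its value was 0.43 ± 0.22 (SE, adjusted p = 0.102), with a 95% interval of -0.04 to 0.89. Of the 7 control genes in the fit of 8 libraries, 4 rose (57.1%, beside 23.7% of all genes) and 1 fell (14.3%, beside 22.8%) under rimonabant. Under TXX-1-10 3 rose (42.9%, beside 34.6%) and 2 fell (28.6%, beside 40.6%). Their median log2 fold change was 0.27 under rimonabant and 0.02 under TXX-1-10.

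The compounds were then compared with each other, as 1 pair over all genes, with the adjusted p taken over all genes of the fit. Of the 25 genes, 9 had lower values with TXX-1-10 than with rimonabant (36.0%, beside 33.8% of all genes), 2 were higher (8.0%, beside 26.6%) and 14 did not pass. With TMM or with the length trend removed 5 were higher, CYP51A1, SC5D and STARD4 being added. The count over all 9395 genes rose too, from 2503 higher to 2910 with TMM and 3103 with the length trend removed. The median log2 fold change was -0.12, beside -0.04 over all genes. Only ACAT2 passed the 2-fold threshold, downward, as did 4.32% of all genes, and 0 passed it upward, as did 2.1%. ACAT2 sat at the threshold, with a log2 fold change of -1.0 ± 0.08 (SE, adjusted p = 3.09e-07), and the alternative settings gave -1.08 to -0.94, on both sides of it.

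In the mevalonate steps 5 of 7 genes had lower values with TXX-1-10 than with rimonabant (71.4%, beside 33.8% of all genes) and 0 higher (beside 26.6%). The median log2 fold change of the 7 was -0.39, beside -0.11 for the sterol steps and -0.01 for the control genes. Beside ACAT2 the lower genes were IDI1 (-0.61, adjusted p = 3.39e-05), MVK (-0.46, adjusted p = 0.000202), FDPS (-0.39, adjusted p = 0.000518) and HMGCS1 (-0.30, adjusted p = 0.0145), all as log2 fold changes. The HMGCS1 difference was lost without rimonabant replicate 2, at -0.26 (adjusted p = 0.11), and without TXX-1-10 replicate 1, at -0.25 (adjusted p = 0.0533). GGPS1 was higher under TXX-1-10, by 0.48 ± 0.12 (SE, adjusted p = 0.00472), where 25% of 11733 genes were higher. PMVK and MVD did not pass, with 95% intervals of -0.23 to 0.19 and -0.21 to 0.07.

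Among the sterol steps EBP (-0.59, adjusted p = 5.77e-05) and DHCR7 (-0.23, adjusted p = 0.00779) had lower values with TXX-1-10 than with rimonabant, and the other 9 did not pass. The share that was lower was thus 18.2%, beside 33.8% of all genes, and 0 were higher, beside 26.6%. The DHCR7 difference was lost without rimonabant replicate 2 (-0.22, adjusted p = 0.0568). For MSMO1 the log2 difference was -0.02, with a 95% interval of -0.21 to 0.17, so a difference of up to about that size in either direction was not resolved. SQLE had -0.09 (95% interval -0.23 to 0.06) and SC5D 0.12 (95% interval -0.02 to 0.27). The intervals of FDFT1 (-0.27 to 0.03), LSS (-0.29 to 0.02), TM7SF2 (-0.37 to 0.14) and HSD17B7 (-0.29 to 0.13) all held 0. SC5D was higher under TXX-1-10 with TMM (0.17, adjusted p = 0.0322) and with the length trend removed (0.17, adjusted p = 0.0256), as was CYP51A1 (0.29, adjusted p = 0.0464 and 0.29, adjusted p = 0.0492). LSS was lower without TXX-1-10 replicate 2 (-0.20, adjusted p = 0.0296), and NSDHL with limma on log2(FPKM + 1) (-0.18, adjusted p = 0.0468). Without TXX-1-10 replicate 3, FDFT1 and NSDHL were lower under TXX-1-10, at -0.19 (adjusted p = 0.000362) and -0.26 (adjusted p = 0.00672), and CYP51A1 was higher, at 0.32 (adjusted p = 0.00522).

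Of the control genes, SREBF1 (0.53, adjusted p = 9.44e-05) and INSIG1 (0.27, adjusted p = 0.00751) were higher under TXX-1-10 than under rimonabant, and INSIG2 (-0.44, adjusted p = 0.00077) and SCAP (-0.16, adjusted p = 0.0414) were lower. Of the 7 in the fit of 8 libraries, 28.6% were thus higher and 28.6% lower, beside 26.6% and 33.8% of all genes. The INSIG1 difference was lost without rimonabant replicate 3, at 0.22 (adjusted p = 0.0875). The SCAP difference was lost without rimonabant replicate 3, at -0.12 (adjusted p = 0.26), and under most other alternatives. STARD4 had a 95% interval of -0.02 to 0.24 and SOAT1 of -0.25 to -0.01, and neither passed. STARD4 was higher with TMM (0.16, adjusted p = 0.0328) and with the length trend removed (0.15, adjusted p = 0.0221), and SOAT1 was lower without TXX-1-10 replicate 3 (-0.16, adjusted p = 0.00289). ABCA1 was 244% higher under TXX-1-10, at a log2 fold change of 1.78 ± 0.25 (SE, adjusted p = 8.32e-05) in the fit of 6 libraries, where 3.3% of genes passed the 2-fold threshold upward. This was the largest difference of the 28 genes in these fits, but with limma it was 1.18 on log2(FPKM + 0.1) and 0.30 on log2(FPKM + 1), the latter smaller than the -0.94 of ACAT2 and under the 2-fold threshold. MYLIP was also higher under TXX-1-10, by 0.47 (adjusted p = 0.00956), a call lost without rimonabant replicate 2 (0.43, adjusted p = 0.0781).

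**Figure D4:**
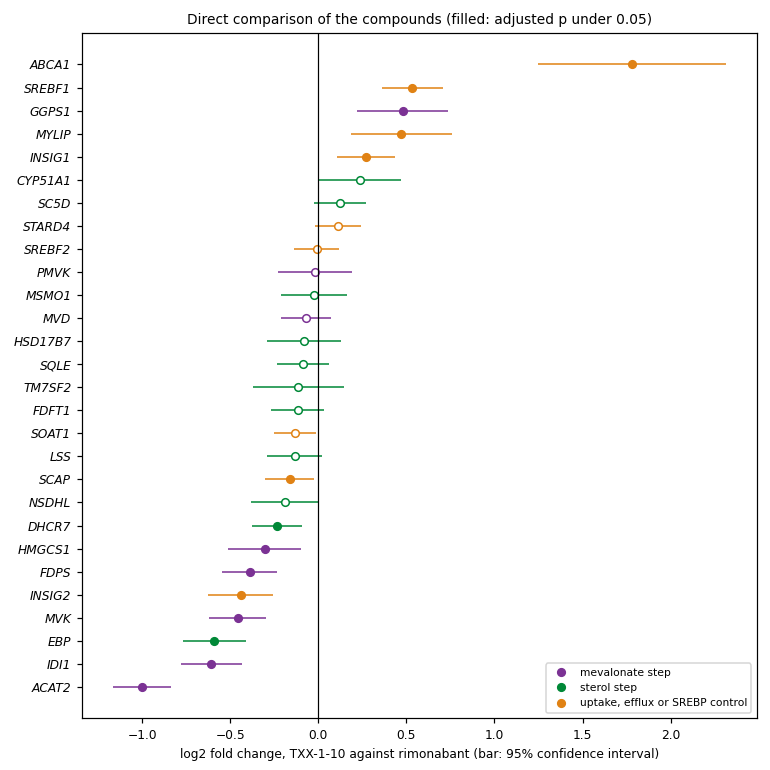
Log2 fold change of TXX-1-10 against rimonabant (x axis) for the 28 genes in order of size, with 95% confidence intervals, coloured by role; filled points have an adjusted p under 0.05. ACAT2 stands lowest at -1.0 and ABCA1 highest at 1.78, and most mevalonate genes lie left of 0.

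A further list of 38 genes around the pathway covered sterol transport, liver X receptors, SREBP processing and INSIG turnover, sterol proteins of the endoplasmic reticulum, and the users of isoprenoids. ABCG1 was not matched, 35 of the others were in the fit of 8 libraries and 2 (NR1H3 and RNF139) in the fit of 7. Under TXX-1-10 15 of the 35 rose (42.9%, beside 34.6% of all genes) and 18 fell (51.4%, beside 40.6%), with a median log2 fold change of -0.17. Under rimonabant 12 rose (34.3%, beside 23.7%) and 9 fell (25.7%, beside 22.8%), with a median of 0.07. In comparisons with vehicle 6 passed the 2-fold threshold, all under TXX-1-10 (2 upward and 4 downward, beside 5.27% and 7.42% of all genes).

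Of the transport genes, VLDLR, a lipoprotein receptor, rose under TXX-1-10 by 1.09 ± 0.07 (SE, adjusted p = 3.29e-08) and under rimonabant by 0.93 ± 0.08 (SE, adjusted p = 4.40e-06), from 2.26, 2.59 and 2.19 FPKM with vehicle to 4.91, 5.05 and 5.04 and 4.45 and 4.47. NPC2, which hands cholesterol out of the lysosome, rose by 1.04 ± 0.08 (SE, adjusted p = 2.20e-07) under TXX-1-10 and 0.64 ± 0.09 (SE, adjusted p = 0.000175) under rimonabant. The TXX-1-10 values were under the 2-fold threshold for VLDLR with limma on log2(FPKM + 1) (0.85) and for NPC2 without TXX-1-10 replicate 3 (0.92) or vehicle replicate 3 (0.999). NCEH1, a hydrolase of cholesterol esters, fell under TXX-1-10. Its FPKM was 53.0, 53.8 and 52.4 with vehicle, 49.3, 52.4 and 47.7 with rimonabant and 18.2, 18.0 and 18.3 with TXX-1-10, and the TXX-1-10 libraries lay far below the rest. The NCEH1 log2 fold change was -1.55 ± 0.05 (SE, adjusted p = 9.14e-11) under TXX-1-10 and -0.08 (adjusted p = 0.232) under rimonabant. The liver X receptor gene NR1H3 was lower under both compounds in the fit of 7 libraries, with -0.72 (adjusted p = 0.00479) under rimonabant and -0.42 (adjusted p = 0.0201) under TXX-1-10, while NR1H2 rose by 0.25 (adjusted p = 0.00727) and 0.36 (adjusted p = 8.16e-05). The NR1H3 calls were lost without vehicle replicate 3, at -0.54 (adjusted p = 0.0667) and -0.23 (adjusted p = 0.262), that under TXX-1-10 also without TXX-1-10 replicate 1 (-0.36, adjusted p = 0.0638), and the rimonabant call of NR1H2 without rimonabant replicate 3 (0.23, adjusted p = 0.0639).

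MBTPS2, the protease that makes the second cut in SREBP, fell, with log2 fold changes of -1.05 ± 0.09 (SE, adjusted p = 3.71e-07) under TXX-1-10 and -0.33 (adjusted p = 0.0139) under rimonabant, whereas MBTPS1, which makes the first, rose under TXX-1-10 by 0.25 (adjusted p = 0.000926). PDSS1 and COQ2, which build and attach the isoprenoid tail of ubiquinone, fell under TXX-1-10, with log2 fold changes of -1.71 ± 0.09 (SE, adjusted p = 6.12e-09) and -1.13 ± 0.11 (SE, adjusted p = 1.65e-06). Under rimonabant they fell with -0.56 (adjusted p = 0.000592) and -0.36 (adjusted p = 0.0277). The rimonabant call of COQ2 was lost without any 1 of the vehicle or rimonabant libraries in the fit (-0.45 to -0.28), and that of MBTPS2 without vehicle replicate 1, rimonabant replicate 2 or rimonabant replicate 3 (-0.36 to -0.29). Under TXX-1-10 MBTPS2 was under the 2-fold threshold with TMM (-0.99), with limma on log2(FPKM + 1) (-0.77) and without TXX-1-10 replicate 2 (-0.98), and COQ2 with limma on log2(FPKM + 1) (-0.95). PDSS2, the partner subunit of PDSS1, rose under both, by 0.94 (adjusted p = 2.57e-07) under TXX-1-10 and 0.73 (adjusted p = 4.02e-05) under rimonabant. TMEM97, a sterol-regulated protein of the endoplasmic reticulum, went in opposite directions. Its FPKM was 16.4, 15.7 and 15.3 with vehicle, 23.2 and 25 in 2 rimonabant libraries and 9.44, 9.48 and 11.6 with TXX-1-10, with no overlap between groups. TMEM97 rose under rimonabant by 0.61 ± 0.08 (SE, adjusted p = 0.000151) and fell under TXX-1-10 by a log2 fold change of -0.64 ± 0.08 (SE, adjusted p = 1.43e-05), and the difference between the compounds was -1.25 ± 0.09 (SE, adjusted p = 1.52e-07). It passed the 2-fold threshold in that direct comparison, as did NCEH1 (-1.46, adjusted p = 1.31e-09) and PDSS1 (-1.15, adjusted p = 1.44e-06), all lower under TXX-1-10. These were 3 of the 35 genes, and 0 passed it upward, beside 4.32% of all genes downward and 2.1% upward.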

How the data were processed

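RNA of MDA-MB-231 cells under 3 treatments was sequenced in 9 libraries. The submitters' processing notes name HISAT2 2.0.5 and featureCounts 1.5.0-p3, and the study's methods state oligo(dT) selection. The authors deposited raw read counts per gene without normalization, and FPKM values made from them. The library total behind each FPKM was recovered from count, FPKM and gene length and used as library size, since listed counts are cut short. In vehicle replicates 1 and 3 the listed counts nonetheless exceeded that total (17492638 against 17078370 and 17383157 against 17221591), so truncation is not the only difference. Totals were 17078370 to 17245379 for vehicle, 17477838 to 18813662 for rimonabant and 18394759 to 19277808 for TXX-1-10, so this scaling differed with treatment. TMM and DESeq2 did not use these totals. Neither strand setting nor the reads in that total is given in the sources used here. Genes with a mean count of at least 10 were tested with edgeR 4.0.16 (R 4.3.3, quasi-likelihood, common biological coefficient of variation 0.0605 with 8 libraries, 0.0688 with 7 and 0.0745 with 6), with all 3 groups in a fit and no block. The SE is the log2 fold change divided by the square root of F, which is approximate. The 8-library genes held at least 96.9% of the listed counts. The fit of 8 libraries was also run on simulated counts without a length trend, which cannot test the effect of that trend. The members and lists were chosen with earlier results of these data known. All members are named, and of the other pathway genes those past 2-fold or on whose value a sentence turns. Alternatives were TMM, DESeq2 1.42.0, limma 3.58.1 on log2(FPKM + 1) and log2(FPKM + 0.1), no count filter, a mean FPKM of at least 1, the replicate block, 2 groups only, 9 libraries, each library left out, and a lowess length trend (span 0.3) as offset. Promoters are RefSeq's, and plots used matplotlib 3.10.9 in Python 3.11.15.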

Additional observations from a re-analysis of the deposited data

How the results depend on the processing

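Of the values for the 28 genes under the alternatives, 1443 kept their direction and their side of the adjusted p threshold, 37 lost it, 35 gained it and 24 turned in sign. The same alternatives were applied to the named values of the other pathway genes after the data had been seen, and 738 of these values kept direction and side, 20 lost the threshold and 0 turned in sign. The sign turned only for differences near 0 that did not pass. For TXX-1-10 against rimonabant, PMVK became 0.030 with TMM, 0.027 with DESeq2, 0.034 with the length trend removed and 0.037 with that and the replicate block, and was -0.10 to 0.056 without single libraries. MSMO1 became 0.026, 0.023, 0.027 and 8.9e-03 in the same settings (-0.11 to 0.038 without single libraries), and HSD17B7 3.1e-03 with length trend and block (-0.16 to 2.6e-03). SREBF2, which is also the median of the control genes, became 0.041, 0.038, 0.023 and 0.037 (-0.049 to 0.031). For TXX-1-10 against vehicle, SREBF2 became 0.022 with TMM and 0.014 with DESeq2 (-0.074 to 5.9e-03 without single libraries), INSIG2 was -0.039 to 0.062, and the median of the control genes was -8.3e-03 to 0.062.

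The median of the sterol steps under TXX-1-10 was 0.47 with TMM, 0.46 with DESeq2, 0.47 with the length trend removed, 0.48 with that and the block, 0.35 with limma on log2(FPKM + 1), and 0.33 to 0.47 without single libraries. Under rimonabant it was 0.44 with limma on log2(FPKM + 1), 0.46 with the replicate block, 0.46 with trend and block, and 0.44 to 0.49 without single libraries. Over only the 4 sterol genes listed in all 9 libraries it was 0.41 with 9 libraries, where the main fit gave 0.37 over the same 4. Between the compounds the median of the sterol steps was -0.065, -0.068, -0.065 and -0.062 with TMM, DESeq2, the trend and trend with block. It was -0.097 with limma on log2(FPKM + 1) and -0.15 to -0.076 without single libraries. With 9 libraries it was -0.15 over the same 4 genes, where the main fit gave -0.13 over these 4. Over the 4 mevalonate genes listed in all 9 libraries the median under rimonabant was 0.33 with 9 libraries, where the main fit gave 0.26 over the same 4. Between the compounds the median of the mevalonate steps was -0.44 to -0.31 without single libraries. Under rimonabant 2 genes fell with limma (either pseudocount), in a fit of those 2 groups only, or without TXX-1-10 replicate 3 (1 to 2 over single libraries left out), the added gene being PMVK. Past the 2-fold threshold upward under rimonabant was 1 gene with limma on log2(FPKM + 1), and 1 to 3 without single libraries, with 1 (MSMO1) without rimonabant replicate 2. Under TXX-1-10 it was 1 to 2, with 1 (INSIG1) without TXX-1-10 replicate 3. Between the compounds 5 genes were higher with TMM or the length trend removed (beside 2910 and 3103 of all 9395 genes). Without single libraries it was 1 to 3, with 1 without rimonabant replicate 3. ACAT2 fell short of the 2-fold threshold, leaving 0 genes, with TMM, DESeq2, limma, the length trend removed or trend and block, and 0 to 1 passed without single libraries, with 0 without rimonabant replicate 2, TXX-1-10 replicate 1 or TXX-1-10 replicate 2. The cause of these shifts was not tested.

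The replicate number as a block left the counts at 14 higher and 6 lower under TXX-1-10, 18 and 1 under rimonabant and 2 and 9 between the compounds, and it changed no other call. The labels give no shared culture or day, and the deviations of same-numbered libraries correlated between -0.79 and 0.83 over genes, so the numbers were not taken as pairing. With all 9 libraries none of the 42 values of the 14 listed genes changed its call. No alternative scaling moved the median of all genes by more than 0.1. Depth limits ABCA1 most, with 22 to 79 reads per library, and genes past the end of a list are not analysed here.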

Other observations

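Of 9 genes of SREBP processing and INSIG turnover, 4 rose (44.4%, beside 34.6% of all genes) and 5 fell (55.6%, beside 40.6%) under TXX-1-10, and 2 rose (22.2%, beside 23.7%) and 3 fell (33.3%, beside 22.8%) under rimonabant. ERLIN1 and ERLIN2, partners in an endoplasmic reticulum complex that takes part in the turnover of sterol-regulated proteins, fell under TXX-1-10 by log2 fold changes of -0.82 ± 0.05 (SE, adjusted p = 3.48e-08) and -0.49 ± 0.06 (SE, adjusted p = 8.91e-06). ERLIN1 read 26.5, 24.5 and 25.8 FPKM with vehicle, 26.8, 28 and 25.7 with rimonabant and 14.4, 14.9 and 14.4 with TXX-1-10. Vehicle and rimonabant overlapped for ERLIN1, and all 3 TXX-1-10 libraries lay below both. RNF145, a ubiquitin ligase of sterol control, fell under rimonabant, with -0.39 (adjusted p = 0.000232), and rose slightly under TXX-1-10, with 0.13 (adjusted p = 0.0332), and the direct difference was 0.52 ± 0.06 (SE, adjusted p = 9.58e-06). Its rise under TXX-1-10 was lost without vehicle replicate 2, vehicle replicate 3 or TXX-1-10 replicate 1 (0.12 to 0.13).

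Of 10 transport genes, 5 rose and 4 fell under TXX-1-10, beside 34.6% and 40.6% of all genes, and 5 rose and 3 fell under rimonabant, beside 23.7% and 22.8%. STARD3, which tethers late endosomes and carries cholesterol, rose by 0.83 ± 0.06 (SE, adjusted p = 8.14e-08) under TXX-1-10 and 0.48 ± 0.07 (SE, adjusted p = 0.000147) under rimonabant. OSBPL2, an oxysterol-binding protein of the same field, rose by 0.82 ± 0.06 (SE, adjusted p = 4.67e-08) and 0.34 ± 0.06 (SE, adjusted p = 0.000963) in the same order, and OSBP by 0.52 (adjusted p = 2.33e-05) and 0.25 (adjusted p = 0.0207). The rimonabant call of OSBP was lost without vehicle replicate 2, vehicle replicate 3 or rimonabant replicate 2 (0.19 to 0.23). SCARB1, a lipoprotein receptor, fell, with -0.50 (adjusted p = 2.20e-06) under TXX-1-10 and -0.31 (adjusted p = 0.000975) under rimonabant. ERG28, a scaffold of the sterol demethylation complex, rose by 0.33 (adjusted p = 0.000719) and 0.65 (adjusted p = 3.26e-05), as did HSD17B7 of that complex. Among 10 isoprenoid users, 3 rose (30%, beside 34.6% of all genes) and 6 fell (60%, beside 40.6%) under TXX-1-10. Under rimonabant 2 rose and 3 fell (20% and 30%), near the shares of all genes (23.7% and 22.8%). FNTA and FNTB, the subunits of farnesyltransferase, went apart under TXX-1-10, at 0.62 (adjusted p = 9.20e-06) and -0.31 (adjusted p = 0.0115), the FNTB call being lost with DESeq2 (-0.26, adjusted p = 0.0525) and without vehicle replicate 2 (-0.25, adjusted p = 0.0584).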
